A study of Mus musculus with 64 samples.

Results

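The 43 genes described here encode the subunits of the mouse proteasome and its activators, measured by bulk RNA-seq in sorted retinal microglia. They were chosen by symbol alone, as every gene named Psma, Psmb, Psmc or Psmd with a number or Psme with a number from 1 to 4, which took 43 of the 25239 genes in the count table. By role, 5 of them are the interferon-inducible members (*Psmb8*, *Psmb9*, *Psmb10*, *Psme1* and *Psme2*). A further 31 are constitutive subunits, 14 of the core particle and 17 of the regulatory particle. The other 7 are the tissue-restricted core subunits *Psma8* and *Psmb11*, the assembly chaperones *Psmd5*, *Psmd9* and *Psmd10*, and the activators *Psme3* and *Psme4*. The question was how the genes of this complex stood in naive retina and at day 12 and day 28 after an intravitreal (IVT) injection of adeno-associated virus (AAV), and whether sex or age altered them.

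All libraries came from male and female mice of genotype Cx3cr1CreER:R26-tdTomato +/-, whose background strain was C57BL/6J, aged 3, 9 or 18 months. Naive eyes were not injected, and treated eyes received AAV2 with no transgene at 1e10 genome copies per eye. Per the study's methods, the vector held a CMV promoter, a WPRE element and an oligonucleotide sequence that inhibits TLR9, and every animal had been given tamoxifen eye drops followed by a washout. Tamoxifen-activated Cre under *Cx3cr1* control turns on the red fluorescent protein tdTomato in microglia, and other cells that express *Cx3cr1* can carry the same label. Each library held 600 living tdTomato-bright cells of 1 retina, and no RNA-seq group with a sham injection was used here. The comparisons used 62 libraries: 7 naive, 8 day 12 and 7 day 28 at 3 months, 5, 7 and 7 at 9 months, and 7, 7 and 7 at 18 months. Per the study's methods, the other eye of each animal went to flow cytometry or staining, so replicates of a group were separate animals.

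The 20S core of the proteasome is a barrel of stacked alpha and beta rings, and 3 of its beta subunits (*Psmb5*, *Psmb6* and *Psmb7*) carry the active sites that cut proteins into peptides. The 19S regulatory particle, made of ATPase, other base and lid subunits, recognizes ubiquitin-tagged proteins and feeds them into the core. Interferon-γ induces 3 alternative catalytic subunits that take the places of the constitutive ones in newly built cores, *Psmb8* (LMP7) for *Psmb5*, *Psmb9* (LMP2) for *Psmb6* and *Psmb10* (MECL-1) for *Psmb7*, and this immunoproteasome favors peptides that fit MHC class I. *Psme1* and *Psme2* encode the alpha and beta chains of the activator PA28, which caps the core and is induced by the same cytokine.

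Promoter sequences are shown for the catalytic pairs *Psmb8* with *Psmb5* and *Psmb9* with *Psmb6*, since an inducible gene of each pair moved and its constitutive partner moved less or was not called, and for *Psme1*, which moved with them. Each run gives the 250 bases before and the 50 bases after a RefSeq transcription start, 5′ to 3′ on the strand of the gene, in build GRCm38.p6. Capitals mark a match to a searched motif, an antioxidant response element (ARE, TGACNNNGC) in *Psmb5* and *Psmb6*, and an interferon-stimulated response element (ISRE, GAAA, any 2 bases, GAAA) on the reverse strand in *Psme1*.
Psmb8 (chr17:34197945-34198244, plus strand): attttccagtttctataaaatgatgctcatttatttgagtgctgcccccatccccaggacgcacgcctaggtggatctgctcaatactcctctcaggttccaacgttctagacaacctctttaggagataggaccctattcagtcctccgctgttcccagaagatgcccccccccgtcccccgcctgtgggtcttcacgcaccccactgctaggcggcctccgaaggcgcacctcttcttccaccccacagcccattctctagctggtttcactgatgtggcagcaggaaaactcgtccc
Psmb5 (chr14:54617946-54618245, minus strand): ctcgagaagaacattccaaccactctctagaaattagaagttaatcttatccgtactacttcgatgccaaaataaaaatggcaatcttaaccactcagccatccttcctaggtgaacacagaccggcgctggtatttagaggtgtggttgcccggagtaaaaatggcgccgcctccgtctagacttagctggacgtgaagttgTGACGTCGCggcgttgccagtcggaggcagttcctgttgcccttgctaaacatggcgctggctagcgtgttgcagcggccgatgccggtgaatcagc
Psmb9 (chr17:34187281-34187580, minus strand): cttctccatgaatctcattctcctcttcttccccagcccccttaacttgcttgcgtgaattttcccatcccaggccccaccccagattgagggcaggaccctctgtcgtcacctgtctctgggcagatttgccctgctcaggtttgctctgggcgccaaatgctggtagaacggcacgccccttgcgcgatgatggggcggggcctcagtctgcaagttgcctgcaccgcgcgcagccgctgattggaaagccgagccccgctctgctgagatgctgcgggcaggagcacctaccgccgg
Psmb6 (chr11:70525107-70525406, plus strand): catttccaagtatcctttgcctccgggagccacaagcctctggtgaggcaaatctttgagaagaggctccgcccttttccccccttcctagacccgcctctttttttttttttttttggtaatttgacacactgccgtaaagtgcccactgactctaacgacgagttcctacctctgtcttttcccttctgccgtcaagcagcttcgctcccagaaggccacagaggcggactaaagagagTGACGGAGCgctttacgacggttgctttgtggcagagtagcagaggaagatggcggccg
Psme1 (chr14:55578244-55578543, plus strand): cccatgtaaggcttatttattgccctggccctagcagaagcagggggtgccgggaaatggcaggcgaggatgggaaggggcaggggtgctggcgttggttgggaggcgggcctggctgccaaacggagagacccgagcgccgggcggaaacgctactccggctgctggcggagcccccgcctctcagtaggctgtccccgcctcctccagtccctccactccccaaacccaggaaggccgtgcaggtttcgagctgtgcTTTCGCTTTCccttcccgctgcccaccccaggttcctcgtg
The match lay at positions -47 to -39 in *Psmb5*, -9 to -1 in *Psmb6* and 9 to 18 in *Psme1*, counted from the start. Both strands were searched, overlapping matches of different motifs were each counted, and neither motif matched in the windows of *Psmb8*, *Psmb9*, *Psmb10* or *Psme2*. The outermost GENCODE starts of *Psmb8*, *Psmb9* and *Psme1*, given in the next paragraph, lie outside these windows, and the bases around them were not searched. RefSeq promoters were matched for 36 of the 43 genes. Among the 5 inducible members the ISRE pattern matched in 1 and the ARE pattern in 0, and among 25 matched constitutive subunits in 2 (*Psmb3* and *Psmd4*) and 4 (*Psmb5*, *Psmb6*, *Psmc6* and *Psmd12*). Over all 32851 promoters of this length, the shares were 3.44% and 12.4%. A match is a run of letters in the window and does not show a bound factor.

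The inducible genes lie close to other genes of the same pathway. In the GENCODE vM21 annotation of GRCm38, *Psmb8* spans chr17:34197721-34201454 on the plus strand and *Psmb9* chr17:34181987-34187764 on the minus strand, within the MHC class II region, and the annotated start of *Psmb9* lies 211 bases from that of *Tap1*, which encodes a subunit of the peptide transporter. *Psme1* (chr14:55578123-55581529, plus strand) and *Psme2* (chr14:55587441-55591113, minus strand) are near neighbors. *Psmb10* lies at chr8:105935735-105938444 (minus strand), and the constitutive *Psmb5*, *Psmb6* and *Psmb7* at chr14:54614119-54618022 (minus strand), chr11:70525367-70527858 (plus strand) and chr2:38588036-38644087 (minus strand). *Psmb9* and *Psme1* are among 7 members whose exons overlap those of another gene (*Tap1* and *Emc9* for these), and the counting is not stated to use strand, so reads in the overlap cannot be told apart. *Psme2* is 99.4% identical over 794 positions to its copy *Psme2b*, which makes the count of either gene uncertain.

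Total counts ran from 1450718 to 10056878 per library, and 3 counts, the smallest amount taken as measurable, equal 2.07 to 0.298 CPM, the scale of counts corrected for the depth of each library. All 8 microglia markers, *Cx3cr1*, *P2ry12* and *Tmem119* among them, were detected in the median library of every day. Their summed level ran from 26151 to 45003 CPM in naive, from 11415 to 31990 at day 12 and from 18759 to 40442 at day 28. The 18-month-old female day 12 replicates 1 and 2, both of the first collection day, stood apart from the other 5 of their age and day, with summed microglia markers of 31990 and 28280 CPM against 17757 to 19404 CPM. The 9-month-old male day 12 replicate 2, of the same collection day, held 28065 CPM against 11415 to 21269 CPM in the other day 12 libraries of its age. It was also the lowest of them for every inducible member. In 1 library, 18-month-old male day 28 replicate 4, the title gives day 28 and the time-point label day 12, and it was kept at day 28 as in its title. In bulk libraries, fewer cells of a type and less RNA per cell cannot be told apart.

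The core and the inducible genes were both well expressed before any injection. Of the 43 genes, 42 had counts enough to be tested. *Psmb11*, the thymus-restricted beta subunit, was at 0 in 60 of 64 libraries with at most 2 counts, and *Psma8*, the testis-restricted alpha subunit, passed with a median of 6.84 CPM and counts between 0 and 146. On a scale of CPM per kilobase of exon, *Psmb2* had the highest median of all members in naive libraries (540.2), and *Psmb8* ranked 4 (309). *Psmb9* ranked 15 (97.7), *Psme1* 6, *Psme2* 10 and *Psmb10* 8, whereas the constitutive catalytic subunits were spread wide, with *Psmb6* at rank 2, *Psmb5* at 28 and *Psmb7* at 29. At day 12, *Psmb8* ranked 1 (782) and *Psmb9* 7 (342) on the same scale, with *Psmb5* at 31 and *Psmb7* at 28.

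At day 12 post-IVT AAV, all 5 inducible members were higher than in naive microglia at each of the 3 ages, by 1.54- to 3.86-fold. In all, 6 members were higher and 2 lower at 3 months, 9 higher and 0 lower at 9 months, and 19 higher and 0 lower at 18 months (edgeR, adjusted p under 0.05). Over all 13584 genes tested, 9.42%, 10.5% and 9.53% were higher and 7.23%, 7.91% and 6.02% lower at the 3 ages. The inducible members had a median log2 fold change of 1.34 at 3 months, 1.61 at 9 months and 1.45 at 18 months, the 31 constitutive subunits one of -0.04, 0.29 and 0.29, and all genes tested one of 0.00, 0.06 and 0.03.

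*Psmb9*, the subunit that replaces *Psmb6*, rose most of the 5. At 3 months it ranged from 78.9 to 146 CPM in naive libraries with a median of 132, and from 267 to 586 CPM at day 12 with a median of 463. At 9 months the 5 naive libraries held 152, 132, 128, 151 and 84.8 CPM and the 7 day 12 libraries 247 to 679 CPM with a median of 426. No day 12 library overlapped with naive at these ages. At 18 months, naive libraries held 124 to 159.6 CPM (median 140.2) and day 12 libraries 140.4 to 800.0 CPM (median 598), with 5 of 7 above every naive library and the overlap made by the female replicates 1 and 2 named above. The log2 fold change was 1.85 (SE 0.24, edgeR adjusted p = 4.94e-08) at 3 months, 1.95 (SE 0.28, edgeR adjusted p = 6.75e-07) at 9 months and 1.84 (SE 0.25, edgeR adjusted p = 1.32e-07) at 18 months. Tested against the study's own threshold of a log2 fold change of 1, *Psmb9* remained called at all 3 ages (edgeR glmTreat adjusted p = 0.0034, 0.00453 and 0.00556), where 3.35%, 4.14% and 3.26% of all genes tested were called in either direction.

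*Psmb8*, which replaces *Psmb5*, was the most abundant of the inducible catalytic genes. At 3 months it ranged from 348 to 564 CPM in naive libraries (median 441) and from 581 to 1678 CPM at day 12 (median 1189). The 9-month naive libraries held 503, 507, 524, 526.5 and 414 CPM, and the day 12 libraries 679 to 1912 CPM (median 1287). The groups did not overlap at 3 or 9 months. At 18 months, naive libraries held 477 to 867 CPM (median 510.5) and day 12 libraries 580.0 to 2275 CPM (median 1803), with 5 of 7 above every naive library. The log2 fold changes were 1.33 (SE 0.22, edgeR adjusted p = 6.81e-06), 1.43 (SE 0.26, edgeR adjusted p = 3.44e-05) and 1.41 (SE 0.23, edgeR adjusted p = 5.23e-06) at 3, 9 and 18 months, and none was called against a log2 fold change of 1.

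*Psmb10*, the third inducible catalytic subunit, moved least of the 5 at every age. Its naive median was 193 CPM at 3 months (129 to 230.1) and 185 CPM at 18 months (158 to 213), and the 9-month naive libraries held 226, 228, 251, 242 and 103 CPM. At day 12 the medians were 286 CPM (146 to 401), 369 CPM (198 to 523) and 476 CPM (164 to 665) at 3, 9 and 18 months. Day 12 overlapped with naive at every age, with 6 of 8, 5 of 7 and 5 of 7 libraries above the highest naive one. The log2 fold change was 0.63 (SE 0.22, edgeR adjusted p = 0.0412) at 3 months, 0.93 (SE 0.26, edgeR adjusted p = 0.00731) at 9 months and 1.14 (SE 0.23, edgeR adjusted p = 0.000226) at 18 months. The call at 3 months was lost in 11 of 15 fits that left out 1 library (edgeR adjusted p up to 0.0916), and that at 9 months without 9-month-old male naive replicate 2 (edgeR adjusted p = 0.118).

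The PA28 chains rose together. *Psme1* went from a naive median of 256 CPM (167 to 315) to 646 CPM (430.4 to 846) at 3 months with no overlap, and from 279.9 CPM (263 to 382) to 1051 CPM (274 to 1249) at 18 months. At 9 months its naive libraries held 184, 303, 265, 353 and 159 CPM and its day 12 libraries 349 to 1097 CPM (median 739.5), 6 of 7 of them above every naive one. *Psme2* went from 121 CPM (64.0 to 158) to 311 CPM (174 to 404) at 3 months and from 130.0 CPM (112 to 142) to 539 CPM (143 to 701) at 18 months, and the groups did not overlap at either age. The 9-month naive libraries held 99.1, 148, 132, 201 and 58.7 CPM of *Psme2*, and those of day 12 held 146 to 557 CPM (median 368). For both genes the overlap at 9 months came from day 12 male replicate 2. Log2 fold changes of *Psme1* were 1.37 (SE 0.23), 1.68 (SE 0.27) and 1.45 (SE 0.24) at the 3 ages (edgeR adjusted p = 8.18e-06, 4.20e-06 and 5.74e-06). Those of *Psme2* were 1.34 (SE 0.27), 1.61 (SE 0.31) and 1.69 (SE 0.28), with edgeR adjusted p = 0.000136, 0.000113 and 6.60e-06. Against a log2 fold change of 1, *Psme1* was called at 9 months (edgeR glmTreat adjusted p = 0.0332) and *Psme2* at 18 months (edgeR glmTreat adjusted p = 0.0455).

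**Figure D1:**
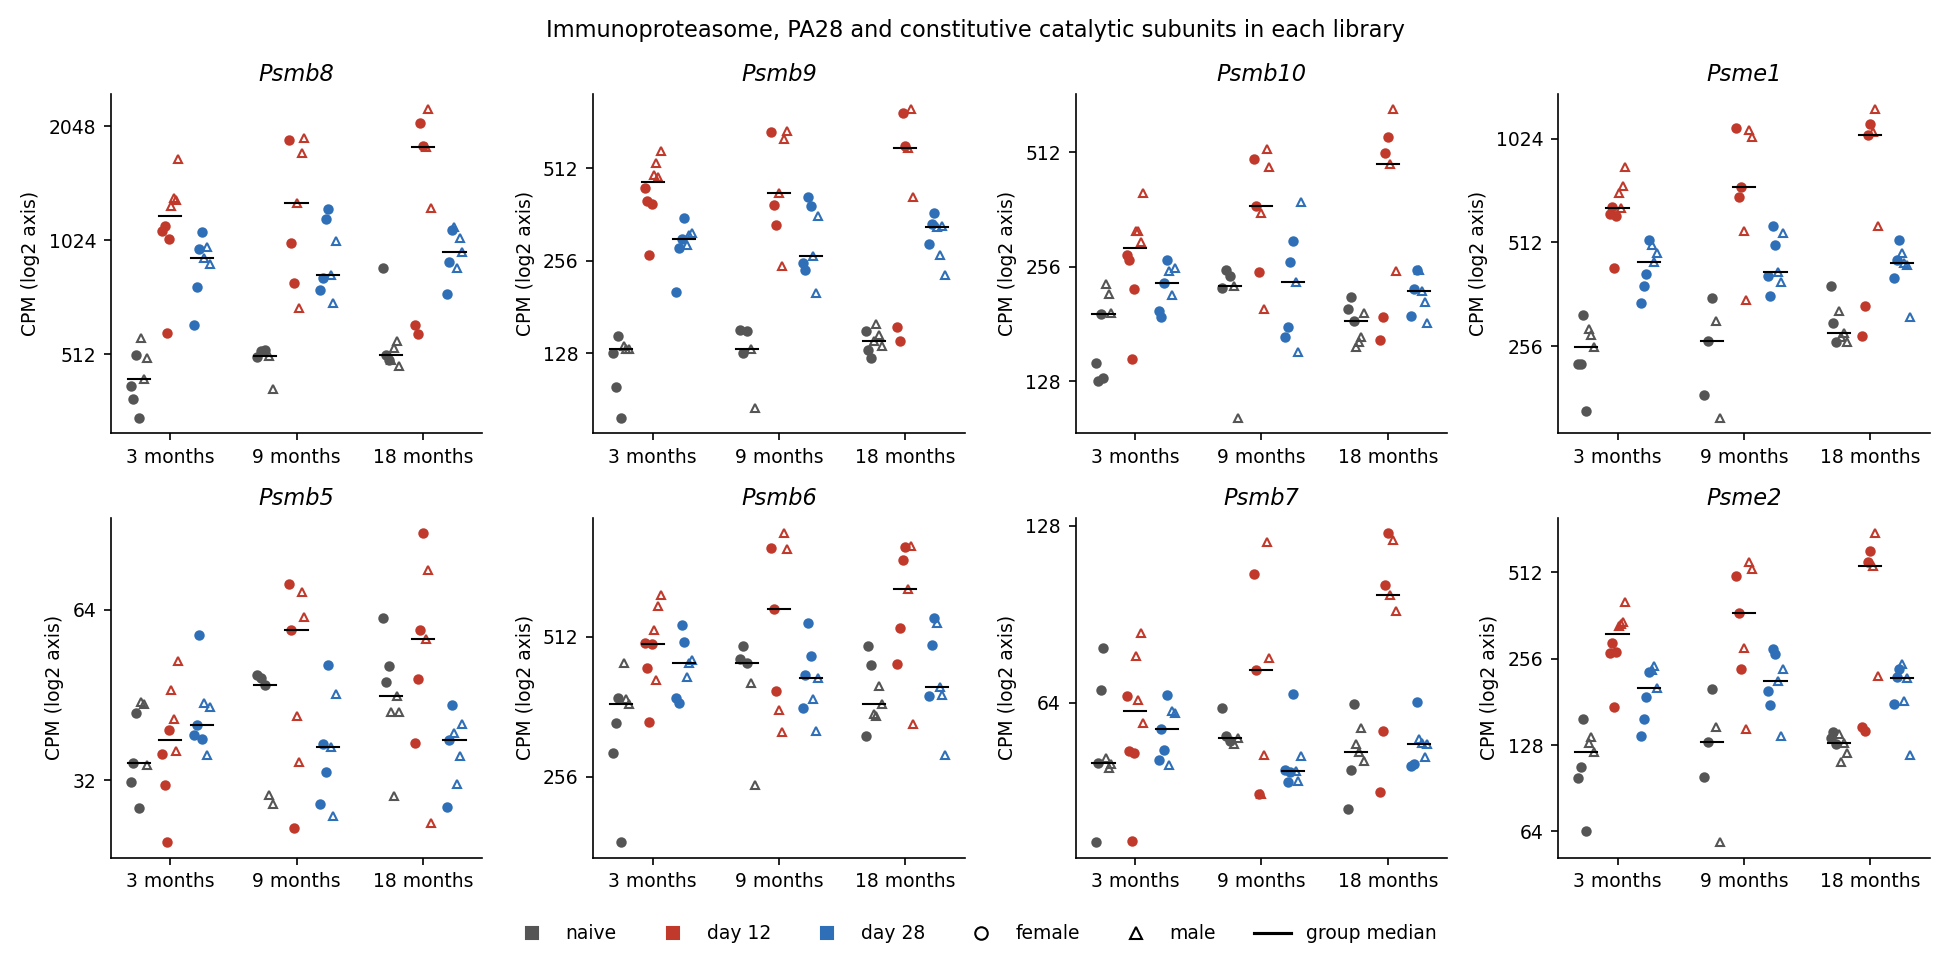
Level of the 5 inducible members and the 3 constitutive catalytic subunits in each of the 62 libraries (CPM on a log2 axis), by age and day; gray is naive, red day 12 and blue day 28, filled circles are females, open triangles males and bars group medians. Day 12 libraries of *Psmb8* and *Psmb9* lie above every naive library at 3 and 9 months, and those of *Psmb5* overlap with naive at each age.

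Markers of other cells also differed in level at day 12. The summed level of the 6 T cell markers was 0 to 135 CPM in naive libraries (median 0.754, with all 6 at a median of 0) and 0 to 337 CPM at day 12 (median 99.0). The 5 markers of cytotoxic lymphocytes summed to 0 to 219 CPM in naive libraries (median 1.44) and 0.525 to 848 CPM at day 12 (median 141), with *Prf1* at a median of 0 on every day. Monocyte-derived cell markers summed to 0.235 to 119 CPM (median 12.1) and 4.76 to 1102 CPM (median 64.2), with *Chil3* at a median of 0. Border macrophage markers were lower, at 6.53 to 450.3 CPM in naive libraries (median 159) and 0 to 59.9 CPM at day 12 (median 5.51). B cell markers had medians of 84.8 CPM in naive and 48.0 CPM at day 12 (*Cd79a* and *Ms4a1* at a median of 0), cycling markers 30.3 and 152 CPM, photoreceptor markers 1656 and 704 CPM and Mueller glia markers 315 and 342 CPM. The part of these cells in the values of the proteasome genes was not tested.

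Of the 3 constitutive catalytic subunits, 0 were called at day 12 at 3 or 9 months, and 2 were higher at 18 months. *Psmb5* had naive medians of 34.2 CPM (28.6 to 43.9) and 45.0 CPM (30.0 to 61.9) and day 12 medians of 37.6 CPM (24.8 to 52.0) and 56.8 CPM (26.9 to 87.4) at 3 and 18 months. Its 9-month naive libraries held 49.0, 30.1, 48.4, 47.1 and 29.0 CPM and its day 12 libraries 26.3 to 71.2 CPM. It was not called at any age, with log2 fold changes of 0.02 (SE 0.20), 0.46 (SE 0.23) and 0.27 (SE 0.20), edgeR adjusted p = 0.981, 0.15 and 0.414. *Psmb6* went from 366 CPM (185 to 450.0) to 495 CPM (336 to 629) at 3 months and from 367 CPM (313 to 488) to 648 CPM (333 to 803) at 18 months. The 9-month naive libraries of *Psmb6* held 458, 408, 488, 450.4 and 246 CPM and those of day 12 held 319 to 854 CPM. All 3 ages overlapped, and the log2 fold changes of 0.51 (SE 0.19), 0.59 (SE 0.22) and 0.65 (SE 0.20) had edgeR adjusted p = 0.0618, 0.0574 and 0.0186. *Psmb7* had log2 fold changes of 0.16 (SE 0.19) and 0.40 (SE 0.21) at 3 and 9 months (edgeR adjusted p = 0.641 and 0.202). At 18 months *Psmb7* rose from 52.8 CPM (42.1 to 63.6) to 97.8 CPM (45.1 to 124), a log2 fold change of 0.80 (SE 0.19, edgeR adjusted p = 0.00215).

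Per kilobase of exon, an inducible subunit was set against the constitutive one whose place it takes within each library. The median ratio of *Psmb8* to *Psmb5* was 6.72, 6.18 and 6.46 in naive libraries of 3, 9 and 18 months and 17.3, 14.6 and 16.7 at day 12. *Psmb9* stood below *Psmb6*, with a median ratio of 0.213, 0.196 and 0.217 in naive and 0.534, 0.499 and 0.544 at day 12. The ratio of *Psmb10* to *Psmb7* was 3.41, 3.70 and 2.73 in naive and 3.73, 4.49 and 4.01 at day 12. *Psme3*, which encodes the nuclear PA28 chain that interferon does not induce, served as the counterpart of *Psme1*, and that ratio went from 21.9, 23.7 and 25.5 to 64.4, 50.5 and 60.0. On the log2 scale of CPM with a prior count of 2, the mean ratio was higher at day 12 than in naive by 1.30, 1.02 and 1.04 for *Psmb8* to *Psmb5*, by 1.32, 1.39 and 0.93 for *Psmb9* to *Psmb6*, and by 0.49, 0.56 and 0.25 for *Psmb10* to *Psmb7*. At 18 months the difference for *Psmb9* to *Psmb6* was -0.029 within the first collection day, which holds those female replicates 1 and 2, and 1.65 within the second, and that for *Psmb8* to *Psmb5* was 0.37 within the first and 1.54 within the second. These ratios are given without a test, since the genes were chosen with earlier results of these data known.

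**Figure D2:**
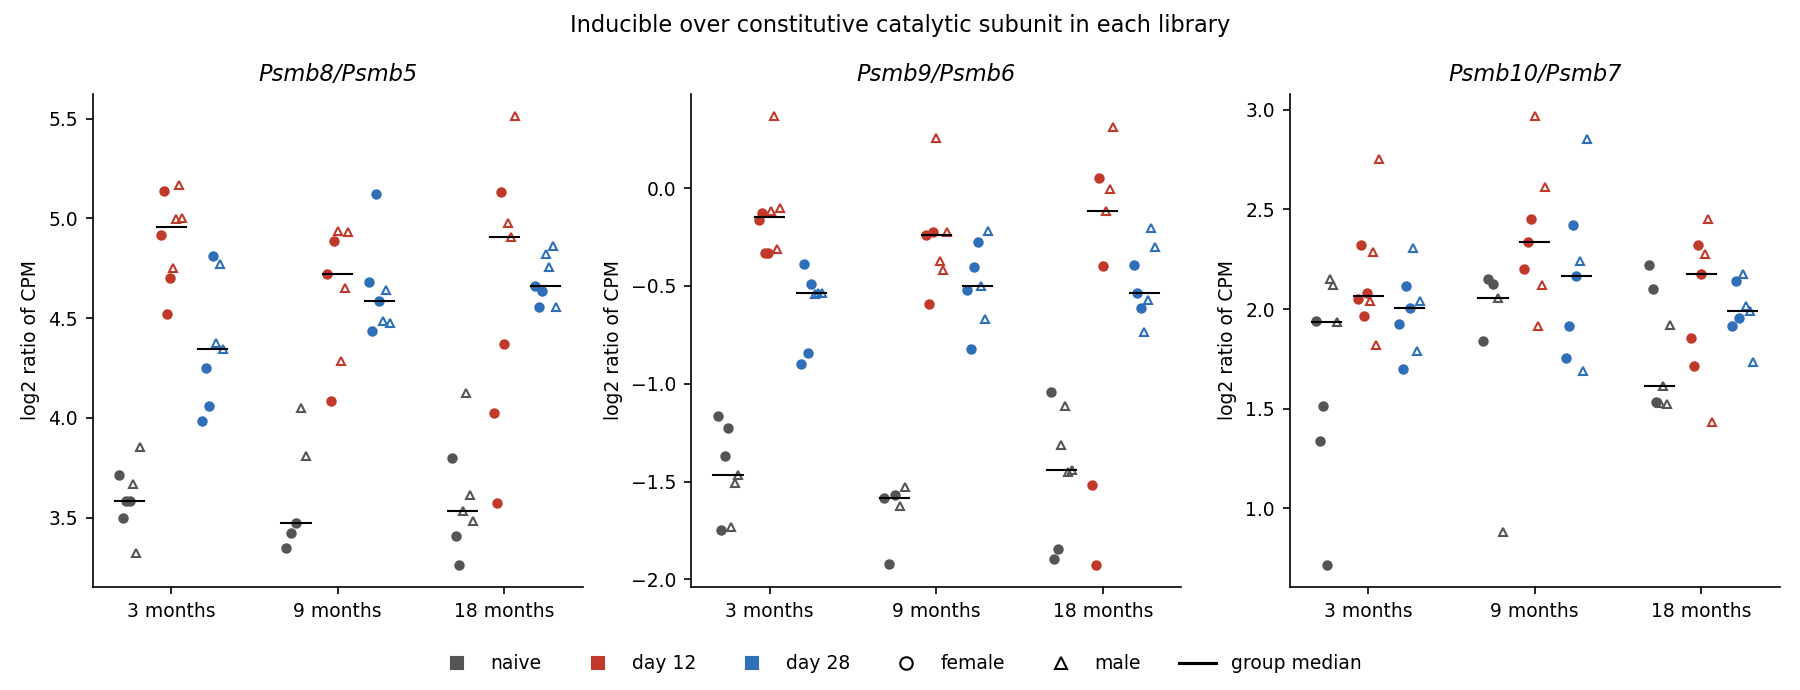
Log2 ratio of the CPM of each inducible catalytic subunit to that of the constitutive subunit it replaces, 1 point per library, by age and day; gray is naive, red day 12 and blue day 28, filled circles are females, open triangles males and bars medians. The *Psmb9* to *Psmb6* ratio has medians of -1.47, -1.58 and -1.44 in naive and -0.15, -0.24 and -0.12 at day 12 for 3, 9 and 18 months, and day 12 does not overlap with naive at 3 and 9 months. At 18 months the female day 12 replicates 1 and 2 lie among the naive values or below them, and the *Psmb10* to *Psmb7* ratio overlaps between days.

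Among the other members at day 12, 10 core and 4 regulatory subunits were higher than in naive at 18 months, and 0 and 1 at 3 months. Of the 14 constitutive core subunits, 0 were called at 3 months, 4 at 9 months and 10 at 18 months, all higher, with medians of 0.28, 0.50 and 0.67 on the log2 fold change scale. Of the 17 regulatory subunits, 1 was higher and 1 lower at 3 months, 0 were called at 9 months and 4 were higher at 18 months, with medians of -0.20, 0.03 and 0.20. Of all genes tested, 9.42%, 10.5% and 9.53% were higher at 3, 9 and 18 months. Counts of calls do not test a difference between ages, and the change from naive to day 12 was called different with age for 0 members. Whether core and regulatory subunits differed was not tested. At 3 months the called subunits outside the inducible members were *Psmd8*, a lid subunit, at 0.55 (SE 0.15, edgeR adjusted p = 0.00832), *Psmd7*, another lid subunit, at -0.43 (SE 0.15, edgeR adjusted p = 0.0437), and the base chaperone *Psmd5* at -0.87 (SE 0.22, edgeR adjusted p = 0.00274). *Psmd5* did not overlap between naive (55.8 to 117 CPM) and day 12 (26.4 to 53.9 CPM) at 3 months, and at 18 months day 12 libraries (54.7 to 69.8 CPM) lay within the naive range (14.9 to 88.1 CPM).

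At 9 months the 4 called subunits were all of the core, the alpha subunits *Psma5* at 0.81 (SE 0.24, edgeR adjusted p = 0.0119) and *Psma2* at 0.66 (SE 0.23, edgeR adjusted p = 0.033) and the structural beta subunits *Psmb1* at 0.68 (SE 0.21, edgeR adjusted p = 0.0191) and *Psmb4* at 0.61 (SE 0.21, edgeR adjusted p = 0.0322). At 18 months, 5 of 7 alpha subunits, 3 of 4 structural beta subunits, 2 of 6 base ATPases and 2 of 8 lid subunits were higher, and 0 of 3 other base subunits, 0 of 3 assembly chaperones and 0 of 2 other activators were called. The smallest p-values among these were those of *Psmd8* at 0.74 (SE 0.16, edgeR adjusted p = 0.00059), *Psma5* at 0.92 (SE 0.22, edgeR adjusted p = 0.00159), *Psma2* at 0.86 (SE 0.20, edgeR adjusted p = 0.00167), the deubiquitinase *Psmd14* at 0.75 (SE 0.19, edgeR adjusted p = 0.00266) and *Psmb1* at 0.76 (SE 0.19, edgeR adjusted p = 0.00312). *Psma5* went from 46.1 CPM (35.9 to 60.3) in naive to 108 CPM (36.7 to 156) at day 12, and *Psmd8* from 130.4 CPM (111 to 155) to 204 CPM (147 to 336). Both overlapped with naive. The other called subunits beside *Psmb6* and *Psmb7* were *Psma1*, *Psma4*, *Psma7*, *Psmb2*, *Psmb4*, *Psmc4* and *Psmc5*, between 0.52 and 0.77.

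Exon length, the union of all annotated exons of a gene, moved with the same split. Constitutive subunits with at most 1500 exon bases had a median log2 fold change of 0.64 at 18 months (14 genes, 71.4% called higher) and longer ones 0.22 (17 genes, 23.5% called higher). Genes outside the complex, at a mean log2 CPM above 4, had a median of 0.22 where short (1006 genes, 16.3% higher) and 0.02 where long (5144 genes, 11.3% higher). At 3 and 9 months the medians were 0.17 and 0.43 for short constitutive subunits and -0.20 and 0.09 for long ones. The shares called higher there were 0% and 14.3% of the short and 5.88% and 11.8% of the long ones. Outside the complex they were 20.9% and 17.7% of short and 11.2% and 11.6% of long genes. The part of length in the result was not tested.

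The 18-month differences were smaller within the first collection day, which holds the female day 12 replicates 1 and 2. Within the first collection day (3 naive and 3 day 12 libraries) the log2 difference in mean of *Psmb9* was 0.65, and within the second (4 and 4) it was 2.23. The same values were 0.50 and 1.83 for *Psmb8*, 0.51 and 1.30 for *Psmb10*, 0.51 and 1.80 for *Psme1* and 0.80 and 1.88 for *Psme2*. For *Psmb9* the collection days were closer at 3 months (2.02 and 1.73) and at 9 months (1.70 and 1.91). At 3 months the values were 1.45 and 1.21 for *Psmb8*, 1.46 and 1.32 for *Psme1*, and 1.52 and 1.26 for *Psme2*. Those of *Psmb10* lay further apart (0.89 and 0.43). *Psmb7* (0.65 and -0.28), *Psmb5* (0.12 and -0.04) and the mean of the constitutive subunits (0.21 and -0.12) differed in sign, and *Psmb6* did not (0.52 and 0.56). In the female replicates 1 and 2 of the first day, *Psmb9* stood at 155.8 and 140.4 CPM, and the T cell markers summed to 0 and 13.2 CPM against 173 to 337 CPM in the other 18-month day 12 libraries. The other day 12 library of the first collection day, male replicate 1, held 598 CPM of *Psmb9* and 1803 CPM of *Psmb8*. Both values lay within those of the second collection day at day 12 (413 to 800 and 1249 to 2275 CPM). Without these 2 libraries, an alternative chosen after seeing the data, 21 members were higher at day 12 for 18 months (11.8% of all genes tested), and the log2 fold changes were 2.20 for *Psmb9*, 1.72 for *Psmb8*, 1.44 for *Psmb10*, 1.78 for *Psme1* and 2.03 for *Psme2*.

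**Figure D3:**
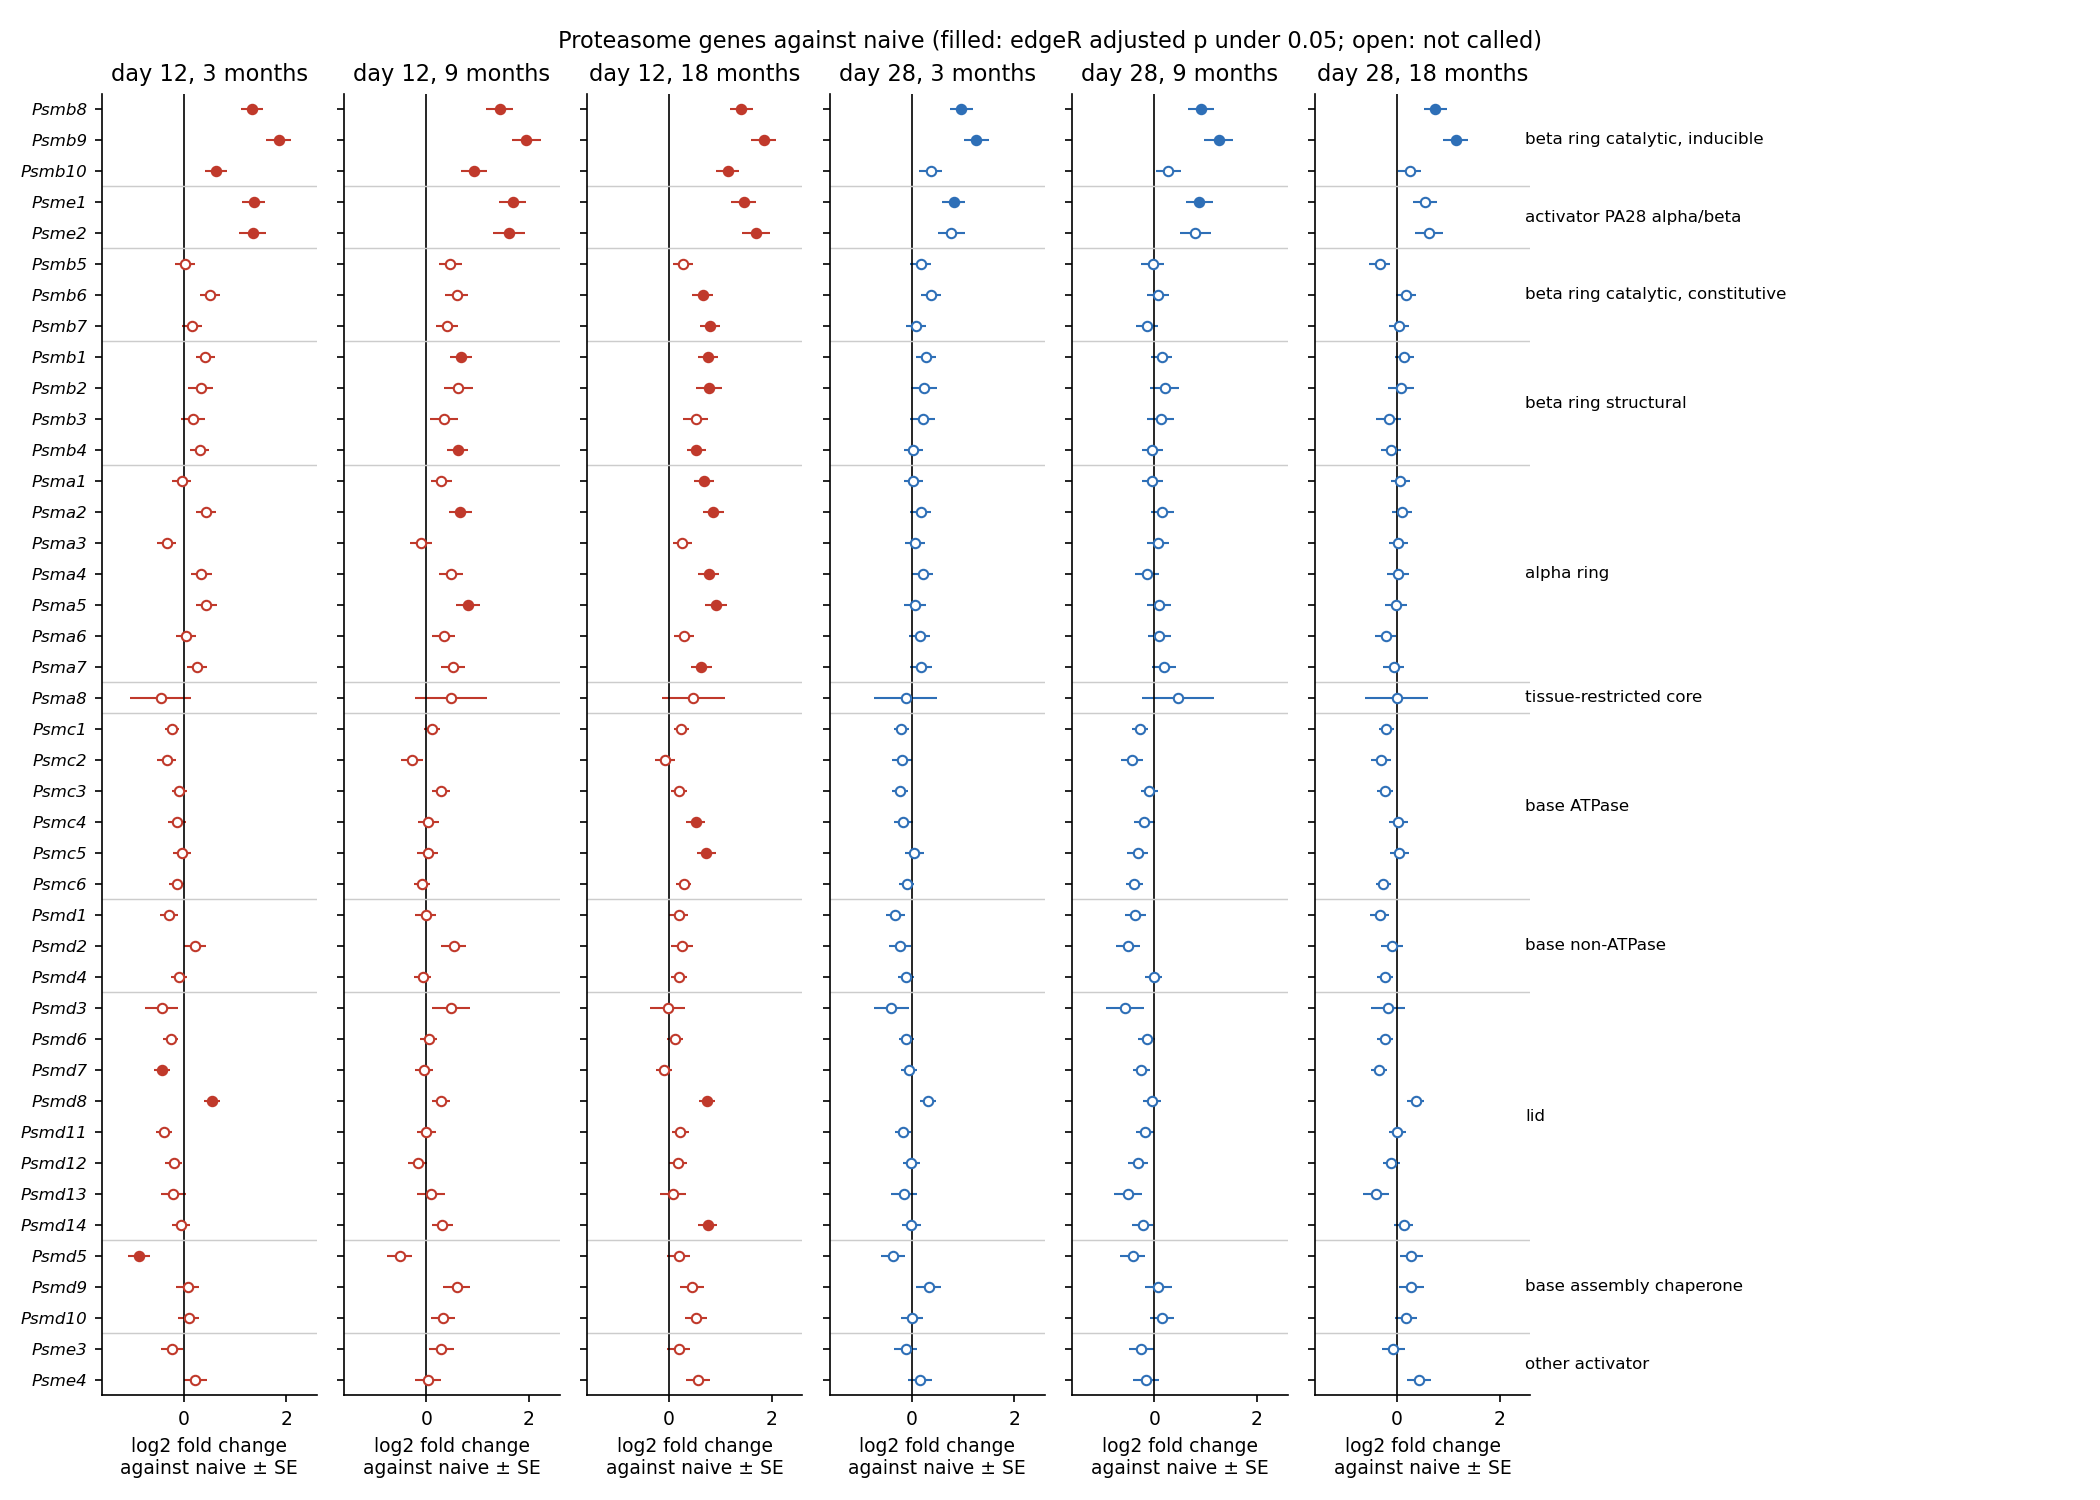
Log2 fold change against naive (points, with bars of 1 standard error) of the 42 tested members at day 12 and day 28 for each age, ordered by role; filled points have an edgeR adjusted p under 0.05. The 5 inducible members are filled in every day 12 panel, and at day 28 no constitutive subunit is filled. Of the constitutive core, 0 of 14 are filled at day 12 for 3 months and 10 of 14 for 18 months. The change to day 12 was called different between ages for 0 members.

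By day 28, *Psmb8* and *Psmb9* were still higher than in naive at every age and no constitutive subunit was called. In all, 3 members were higher at 3 months (*Psmb8*, *Psmb9* and *Psme1*), the same 3 at 9 months and 2 at 18 months (*Psmb8* and *Psmb9*), with 0 lower at any age, where 1.99%, 2.47% and 3.14% of all genes tested were higher and 0.788%, 1.52% and 1.68% lower. At an unadjusted p under 0.05 there were 4, 7 and 6 members, and the share of all genes at that cut is not given here. The inducible members had a median log2 fold change of 0.82, 0.88 and 0.63, the constitutive subunits one of 0.03, -0.14 and -0.11, and all genes tested one of -0.01, 0.04 and 0.02.

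*Psmb9* stood at 202 to 354 CPM at day 28 in 3-month-old mice (median 302), 202 to 414 CPM at 9 months (median 265) and 231 to 367 CPM at 18 months (median 329.7). No library overlapped with the naive libraries of its age. The log2 fold change was 1.26 (SE 0.24, edgeR adjusted p = 0.000527), 1.25 (SE 0.28, edgeR adjusted p = 0.00333) and 1.15 (SE 0.24, edgeR adjusted p = 0.00141), a 2.40-, 2.38- and 2.21-fold difference. *Psmb8* stood at 613 to 1077 CPM (median 918), 699.9 to 1236 CPM (median 830.3) and 737 to 1107 CPM (median 954), and overlapped with naive at 18 months only. Its log2 fold changes were 0.96 (SE 0.22, edgeR adjusted p = 0.00679), 0.91 (SE 0.25, edgeR adjusted p = 0.0233) and 0.74 (SE 0.22, edgeR adjusted p = 0.0367). Against a log2 fold change of 1, 0 members were called at day 28, where 0.493%, 0.582% and 0.780% of all genes were.

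*Psme1* held 342 to 520.2 CPM at 3 months (median 451), 358 to 572 CPM at 9 months (median 420.0) and 310.5 to 522 CPM at 18 months (median 446). It was called at 3 months (0.82, SE 0.23, edgeR adjusted p = 0.0384) and at 9 months (0.88, SE 0.26, edgeR adjusted p = 0.0387), where the groups did not overlap, and not at 18 months (0.55, edgeR adjusted p = 0.18). The call was lost in 11 of 14 fits that left out 1 library at 3 months and in 7 of 12 at 9 months, and that of *Psmb8* at 18 months in 8 of 14. *Psme2* at 0.77, 0.80 and 0.63 (edgeR adjusted p = 0.121, 0.128 and 0.197) and *Psmb10* at 0.37, 0.27 and 0.25 (edgeR adjusted p = 0.54, 0.622 and 0.658) did not pass the test. *Psmb5* had log2 fold changes of 0.18, -0.03 and -0.34, *Psmb6* of 0.37, 0.07 and 0.17 and *Psmb7* of 0.08, -0.14 and 0.04, none of them called. At 9 months the calls, more than the size of the differences, depended on 1 library. This was 9-month-old male naive replicate 2, the lowest naive library of its age in the mean of the inducible members. Leaving it out kept only 1 male naive library of that age, and the day 28 calls were lost. The log2 fold changes at day 28 were then 0.87 for *Psmb8*, 1.13 for *Psmb9* and 0.70 for *Psme1*.

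At day 28 the T cell markers summed to 13.8 to 162 CPM (median 66.3), those of cytotoxic lymphocytes to 0 to 279 CPM (median 55.6) and those of monocyte-derived cells to 0.256 to 58.9 CPM (median 7.69). Border macrophage markers summed to 0 to 92.9 CPM (median 6.38), with *Lyve1* and *Cd163* at a median of 0. The part of these cells in the day 28 values was not tested. The library with 2 day labels held 231 CPM of *Psmb9* and 118 CPM of *Psme2*, below the other 6 day 28 libraries of its age for both genes (267 to 367 and 178 to 245 CPM), and 954 CPM of *Psmb8*, within their range. Placed at day 12, it left 15 members called at day 12 and 1 at day 28 for 18 months. The shares of all genes called there in either direction were 14.1% and 4.59%. With this library left out altogether, 19 members were called at day 12 (15.9% of all genes).

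Day 28 was set against day 12 in the same fit, a comparison chosen after the other results were seen. At 3 months 0 members were lower, where 1.44% of all genes were by edgeR. At an unadjusted p under 0.05 there were 7 members, and the share of all genes at that cut is not given here. At 9 months 6 members were lower against 5.21% of all genes, among them *Psmd2* at -1.05 (edgeR adjusted p = 0.00092), *Psma5* at -0.73, *Psmb4* at -0.65, *Psmd3* at -1.05, *Psme1* at -0.81 (edgeR adjusted p = 0.0181) and *Psme2* at -0.81 (edgeR adjusted p = 0.0436). At 18 months 10 members were lower against 2.32% of all genes, including *Psma5* at -0.93 (edgeR adjusted p = 0.00776), *Psmb10* at -0.90 (edgeR adjusted p = 0.0183), *Psme1* at -0.90 (edgeR adjusted p = 0.0188), *Psme2* at -1.07 (edgeR adjusted p = 0.018) and *Psmb7* at -0.76 (edgeR adjusted p = 0.018). *Psmb8* and *Psmb9* were not called lower at any age, with differences of -0.37, -0.52 and -0.67 for *Psmb8* and -0.59, -0.69 and -0.70 for *Psmb9*. Without the 18-month-old female day 12 replicates 1 and 2, 23 members were lower at 18 months against 5.05% of all genes, and all 5 inducible members were among them (*Psmb8* at -0.97, edgeR adjusted p = 0.00101, and *Psmb9* at -1.06, edgeR adjusted p = 0.000281).

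**Figure D4:**
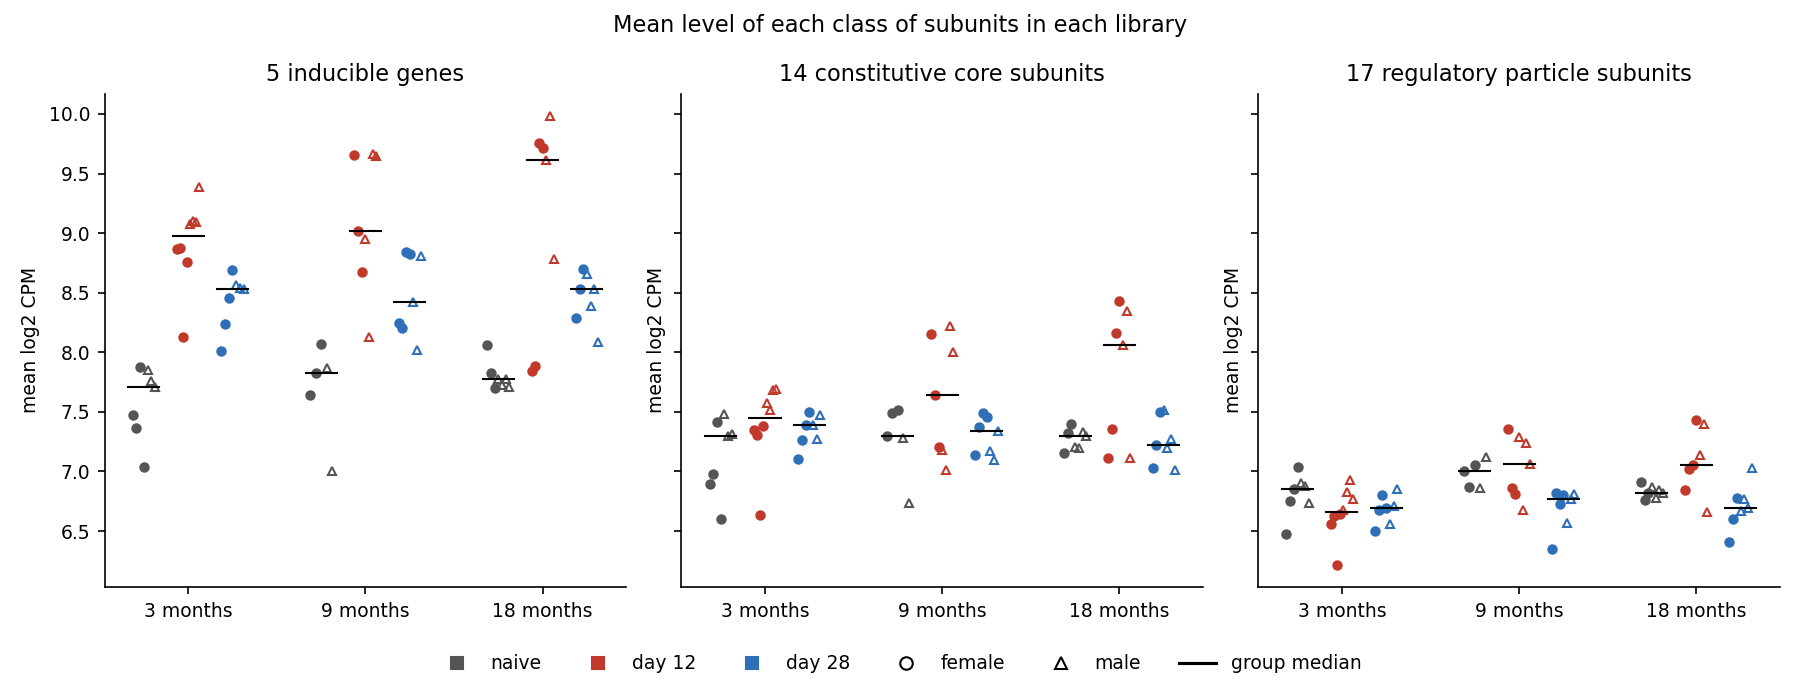
Mean log2 CPM (prior count 2) of the 5 inducible members, the 14 constitutive core subunits and the 17 regulatory subunits in each library, by age and day; gray is naive, red day 12 and blue day 28. The inducible mean lies above the mean of all constitutive subunits by 0.63, 0.57 and 0.77 in naive, 1.92, 1.80 and 1.68 at day 12 and 1.45, 1.52 and 1.5 at day 28 for 3, 9 and 18 months (means over libraries).

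The mean log2 CPM of the 5 inducible members was also set against the mean of the 31 constitutive subunits of the same library. The inducible mean lay above the constitutive one by 0.63 ± 0.21 (SD, n = 7), 0.57 ± 0.31 (SD, n = 5) and 0.77 ± 0.14 (SD, n = 7) in naive libraries of 3, 9 and 18 months. At day 12 the difference was 1.92 ± 0.15 (SD, n = 8), 1.80 ± 0.28 (SD, n = 7) and 1.68 ± 0.62 (SD, n = 7), and at day 28 it was 1.45 ± 0.16, 1.52 ± 0.29 and 1.5 ± 0.21 (SD, n = 7 each). The wide spread of the 18-month day 12 group came with the female replicates 1 and 2, at 0.88 and 0.72.

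A different response in males and females was not called for any member by the test of that difference. For the interaction of sex with day 12, 0 members were called at any age (edgeR, adjusted p under 0.1) and 0 had an unadjusted p under 0.05, where 0%, 0.00736% and 0% of all genes were called. Within each sex, *Psmb9* was higher at day 12, with a log2 fold change of 1.73 in females and 1.97 in males at 3 months, 1.69 and 2.20 at 9 months, and 1.63 and 2.05 at 18 months, and *Psme2* was at 1.23 and 1.46, 1.35 and 1.87, and 1.42 and 1.96. All of these passed the test within the sex, which 4.34% of all genes passed as higher in females and 4.14% in males at 3 months, 6.10% and 2.62% at 9 months, and 2.16% and 5.51% at 18 months. *Psmb8* was 1.19 and 1.47, 1.25 and 1.61, and 1.03 and 1.79, and only the value of 18-month-old females did not pass (edgeR adjusted p = 0.0598). The difference between the sexes there was 0.76 (SE 0.44, edgeR adjusted p = 0.665). *Psmb10* passed within 18-month-old males alone (1.44, edgeR adjusted p = 0.00124), and the female value was 0.84. Without the female day 12 replicates 1 and 2 at 18 months, the female values were 1.64 for *Psmb8* (edgeR adjusted p = 0.000286) and 1.43 for *Psmb10* (edgeR adjusted p = 0.00317), 0 members were called for the interaction, and the difference between the sexes for *Psmb8* was 0.14 (SE 0.42).

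With age, some constitutive subunits were higher at day 12, and for the inducible members the call depended on the female replicates 1 and 2 of 18 months. Between 9 and 3 months at day 12, 3 members were higher (edgeR, adjusted p under 0.1), where 1.20% of all genes were. These were the ATPase *Psmc1* at 0.51 (SE 0.14, edgeR adjusted p = 0.0527) and the lid subunits *Psmd3* at 1.20 (SE 0.32, edgeR adjusted p = 0.0581) and *Psmd7* at 0.54 (SE 0.15, edgeR adjusted p = 0.0727). Between 18 and 3 months, 6 members were higher against 1.60% of all genes, namely *Psmc5* at 0.72 (SE 0.18, edgeR adjusted p = 0.0382), *Psmd7* at 0.56, *Psmd14* at 0.64, *Psmd1* at 0.63, *Psmc1* at 0.46 and *Psmb7* at 0.60. No inducible member was called, and *Psmb10* had the largest difference of the 5 (0.56, edgeR adjusted p = 0.213). Without the female day 12 replicates 1 and 2 of 18 months, 25 members were higher against 4.12% of all genes, 4 inducible and 21 constitutive. *Psmb10* was then at 0.85 (edgeR adjusted p = 0.0121), *Psme2* at 0.84 (edgeR adjusted p = 0.0412), *Psmb8* at 0.69 (edgeR adjusted p = 0.039) and *Psme1* at 0.65 (edgeR adjusted p = 0.0597), and *Psmb9* at 0.54 did not pass (edgeR adjusted p = 0.115). The counts depended on single libraries. They ran from 0, without 3-month-old male day 12 replicate 1, to 7, without 9-month-old male day 12 replicate 2, for 9 months, and from 0, without 18-month-old male day 12 replicate 1, to 22, without 18-month-old male day 12 replicate 3, for 18 months, and both were 0 with uncorrected counts and no batch term and 3 with the collection day as a term in uncorrected counts. At day 28 and in naive mice, 0 members differed with age at 9 or 18 months, where 0% and 0.0442% of all genes did at day 28 and 0% and 0.110% in naive mice, with 0 at an unadjusted p under 0.05 at day 28 and 1 and 1 in naive mice. Between ages, the change from naive to day 12 was called different for 0 members. Of all genes, 0.0368% were called for 9 and 0.155% for 18 against 3 months. At an unadjusted p under 0.05, 10 members differed for 18 against 3 months, and the share of all genes at that cut is not given here. Without the female day 12 replicates 1 and 2 of 18 months, 4 constitutive subunits and 0 inducible members were called. There 1.23% of all genes were called higher.

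Genes that work with the proteasome were read from a list of 34 in the table. At day 12, 11 were higher and 1 lower at 3 months, 12 and 1 at 9 months and 8 and 3 at 18 months, where 9.42%, 10.5% and 9.53% of all genes tested were higher and 7.23%, 7.91% and 6.02% lower. At day 28, 6, 4 and 3 were higher and 0 lower, where 1.99%, 2.47% and 3.14% of all genes were higher. *Nlrc5*, the transactivator of MHC class I genes, had log2 fold changes of 3.84, 4.68 and 2.95 at day 12 (edgeR adjusted p = 1.76e-09, 5.50e-09 and 6.00e-07) and of 2.29, 3.74 and 2.59 at day 28 (edgeR adjusted p = 0.00031, 3.16e-06 and 2.28e-05). Its naive level was low, with 0, 4.07, 1.01, 5.31 and 5.18 CPM in the 9-month libraries. The smallest amount taken as measurable was 0.298 to 2.07 CPM, so the size of these changes is uncertain. *Tap1* had log2 fold changes at day 12 of 2.66 (SE 0.36) at 3 months and 3.61 (SE 0.44) at 9 months, and *Irf1*, an interferon-induced transcription factor, one of 2.62 (SE 0.31) at 18 months (edgeR adjusted p = 7.53e-08, 1.27e-08 and 5.44e-09). At day 28, *Irf1* had a log2 fold change of 1.51 at 18 months (edgeR adjusted p = 0.000555). Among the few that were lower at day 12, named after their values were seen, were *Psmg2*, a chaperone of core assembly, at 3 months (log2 fold change -0.56) and 18 months (-0.75), *Adrm1*, a ubiquitin receptor of the proteasome, at 9 months (-0.62), and *Ubqln2*, which delivers ubiquitin-tagged proteins, at 18 months (-1.34).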

How the data were processed

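Single-end polyA RNA-seq libraries were made by the authors from 600 sorted microglia per retina with the SMART-Seq v4 and Nextera XT kits. Per the labels and the study's methods, reads were demultiplexed with bcl2fastq 2.20, aligned to mm10 with STAR 2.7.8a and counted per refGene gene with featureCounts, and R 4.2.2 was used. The authors deposited whole-number counts, not scaled for depth, as 1 table of 64 libraries and 1 of 63 libraries after ComBat_seq for the 2 collection days, the source of every value here unless another is named. Strand use in counting is not given in the sources used here.

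The 62 libraries of 18 groups (age, sex and day, from the labels) were fitted with edgeR 4.0.16 (R 4.3.3, limma 3.58.1) after TMM scaling and filterByExpr, with 1 mean per group. Quasi-likelihood tests compared group means with the sexes weighted equally, with Benjamini-Hochberg adjustment over all 13584 genes tested and thresholds of 0.05 (days against naive) and 0.1 (ages and interactions). Plain tests against 0 were used, and the study's threshold of a log2 fold change of 1 was an alternative (glmTreat). Log2 CPM used a prior count of 2. The median library held 4.37e6 counts. None of 79 within-group library pairs held identical counts. The steps were tested on simulated data.

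The members, lists and tests were chosen with earlier results of these data known. Named were the 5 inducible members and *Psmb5*, *Psmb6* and *Psmb7*, in each comparison up to 5 other called members per direction and up to 3 called pathway genes by smallest p, members that no filter passed, and the 5 genes most like the inducible members. Alternatives were DESeq2 1.42.0, its size factors, no filter, uncorrected counts with and without collection day, a replicate block, only the ages compared, the libraries with doubtful labels in or out, a prior count of 0.5 and each library left out in turn. Promoters came from RefSeq (GRCm38.p6) and exon lengths from GENCODE vM21. Each length, also in the values per kilobase, is the union of all annotated exons of a gene and can exceed that of its main transcript. Protein sequences were not used here. Some genes that the rule names, and a promoter motif, are not reported here.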

Additional observations from a re-analysis of the deposited data

Results flagged for a closer look

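In 11 of 99 tests, each of 1 gene or ratio in a group of 5 to 8 libraries, 1 library lay far from the rest of its group by Dixon's test, which chance alone gives in about 1 in 20. The 9-month-old male naive replicate 2 held 3 of the 11. It had 414 CPM of *Psmb8* where the other naive libraries of its age had 503 to 526.5 CPM, 103 CPM of *Psmb10* where they had 226 to 251 CPM, and a log2 ratio of *Psmb10* to *Psmb7* of 0.88 where they had 1.84 to 2.15. The other low or high naive values were 867 CPM of *Psmb8* in 18-month-old female replicate 1 (others 477 to 556 CPM), 62.6 CPM of *Psmb7* in 9-month-old female replicate 1 (others 54.3 to 56.1 CPM) and a log2 ratio of *Psmb9* to *Psmb6* of -1.92 in 9-month-old female replicate 2 (others -1.62 to -1.53). At day 12, 3-month-old male replicate 2 had a log2 ratio of *Psmb9* to *Psmb6* of 0.37, where the others had -0.33 to -0.10. At day 28, *Psmb5* stood at 57.8 CPM in 3-month-old female replicate 3 (others 35.5 to 43.8 CPM), *Psmb7* at 66.2 CPM in 9-month-old female replicate 4 (others 46.9 to 52.0 CPM) and at 64.2 CPM in 18-month-old female replicate 4 (others 49.9 to 55.4 CPM), and the log2 ratio of *Psmb8* to *Psmb5* at 5.12 in 9-month-old female replicate 3 (others 4.44 to 4.68).

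Of the libraries outside the comparisons, 1 held all 5 inducible members above every naive library of its age and the other held 2 of the 5 above them. In 18-month-old female day 28 replicate 1, left out by the rule that chose the genes, *Psmb8* stood at 1667 CPM (naive 477 to 867, other day 28 libraries 737 to 1107), *Psmb9* at 581 CPM (124 to 159.6 and 231 to 367), *Psmb10* at 444 CPM (158 to 213 and 182 to 252), *Psme1* at 877 CPM (263 to 382 and 310.5 to 522) and *Psme2* at 458 CPM (112 to 142 and 118 to 245). All 5 lay above the other day 28 libraries of that age. In 9-month-old male day 28 replicate 1, which has counts only in the table without batch correction, *Psmb8* stood at 851 CPM (naive 441 to 547, other day 28 libraries 709 to 1191) and *Psmb9* at 271 CPM (101 to 167 and 212 to 443), within the range of the other day 28 libraries. Its values of *Psmb10* (165 CPM, naive 118 to 263), *Psme1* (359.7 CPM, naive 144 to 386) and *Psme2* (148 CPM, naive 70.6 to 236) lay within the naive range. Each of these is 1 library with no replicate.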

How the results depend on the processing

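Outside the fits that left out 1 library, 659 values kept their direction and their side of the threshold or stayed within the spread, 34 lost a call, 4 gained one, 28 moved further, 1 of them to the other sign (the *Psmb9* to *Psmb6* ratio at 18 months, below), and 0 of those with a test reversed. Against a log2 fold change of 1, members called fell to 1, 2 and 2 at day 12 and to 0, 0 and 0 at day 28 for 3, 9 and 18 months. With uncorrected counts and no batch term, 5 members were called at day 12 for 3 months (11.8% of all genes, either direction). At day 28 they were 1 and 1 for 9 and 18 months (1.91% and 3.28% of all genes). For 9 and 18 against 3 months at day 12 they were 0 and 0 (0.461% and 0.387%). For 18 against 3 months at day 12, 6 members were called in the main fit, with 1.97% of all genes called in either direction. Without a filter on low counts there were 3 (2.88%), and with the collection day as a term in uncorrected counts 3 (1.02%). Without the library with 2 day labels there were 10 (2.39%), and with the compared ages alone in the fit 14 (3.67%). DESeq2 gave 13 (3.91%), and 8 (3.20%) for 9 against 3 months. Leaving out the 18-month-old female day 12 replicates 1 and 2, an alternative chosen after seeing the data, gave 25 (5.78%). At day 28, fitting the compared ages alone left 1 and 1 member at 9 and 18 months (2.22% and 4.27% of all genes). Placing the library with 2 day labels at day 12 left 1 at 18 months (4.59%). Replicate numbers did not pair the libraries (mean correlation -0.0114 over 464 pairs with the same number and 0.00407 over 1348 others). With the replicate number as a block, 7, 8 and 19 members were called at day 12 (16.0%, 16.9% and 14.8% of all genes). At day 28 that block left 1 and 1 for 9 and 18 months (3.42% and 4.52%). Within the first collection day alone, the 18-month day 12 change of the log2 ratio was 0.37 for *Psmb8* to *Psmb5* and -0.029 for *Psmb9* to *Psmb6* (1.65 within the second), and at day 28 the latter was 0.59 and 1.25. Leaving out each library in turn gave 6 to 9, 5 to 13 and 13 to 21 members at day 12, 2 to 3, 0 to 4 and 1 to 2 at day 28, and 0 to 7 and 0 to 22 for 9 and 18 against 3 months at day 12, with 0 throughout for sex by day 12 and for ages at day 28. The causes were not tested. Groups of 2 to 4 libraries per sex and age limit the interactions, and intervals of counting error do not cover amplification.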

Other observations

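Outside the 43 genes, 5 followed the mean log2 CPM of the inducible members most closely over the 62 libraries, among 13542 genes, as a description that shares depth and day with the members. *Psme2b*, the copy of *Psme2*, had a Pearson r of 0.981 and mean levels of 209 CPM in naive, 618 CPM at day 12 and 341 CPM at day 28. *Plaat3*, a phospholipase and acyltransferase, had an r of 0.960 (45.7, 225 and 97.9 CPM), and *AW112010*, an interferon-induced transcript, an r of 0.953 (145, 1301 and 499.6 CPM). The antioxidant genes *Prdx5* (r = 0.947) and *Txn1* (r = 0.938) had means of 359, 939.6 and 509.7 CPM and of 148, 516 and 289.9 CPM.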
